A study of Mus musculus with 10 samples.

Results

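The genes described here encode proteins of the cytosolic and the mitochondrial ribosome in resting and stimulated B lymphocytes of the mouse spleen. They were taken by name: symbols beginning with Rpl or Rps and a digit, Rplp symbols and Rpsa for the cytosolic ribosome, and symbols beginning with Mrpl or Mrps and a digit for the mitochondrial one, without the kinases named Rps6k. The rule found 30 of the 6610 genes listed, 23 cytosolic and 7 mitochondrial. By symbol alone, 13 cytosolic genes are named for the large and 10 for the small subunit. Of the mitochondrial genes 3 are named for the large and 4 for the small subunit. The place of each protein in the ribosome was not checked. The reference annotation names 91 protein-coding genes under the cytosolic rule and 78 under the mitochondrial one, so the genes listed sample each ribosome and do not cover it. All 30 passed the filter on low values.

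RNA came from B cells of C57BL/6 mice, an inbred laboratory strain, and the series title names survivin, a protein of cell division; the labels name no mutation or transgene in any group. There were 5 groups of 2 libraries. Cells of the group div12_48_d and of the group div12_48_u are Phase II: div12 cells kept for a further 48 h in 0.12 µg/ml of an antibody against CD40, a co-stimulatory receptor, and then sorted into those that had divided again (d) and those that had not (u). Cells of the groups div12 and div0 are Phase I: anti-CD40 and anti-IgM, which binds the antigen receptor, were given as a pulse, and cells were taken at 48 h as divided (div12) or undivided (div0) cells. Cells of the group naive were resting and received no activation. Phase I replicates are independent pools of 4 to 5 mice according to the labels. For Phase II replicates no pool is stated. The p-values rest on a spread pooled over all 10 libraries, so those of Phase II comparisons need not measure a spread between mice. Phase II RNA came from 500000 cells and Phase I RNA from 1000000 cells, so effects of the phase, the time in culture, the number of cells and the batch cannot be told apart. Levels are given in TPM, a transcript abundance that is relative within a library and corrected for transcript length; they keep no read count, so the depth is unknown.

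Cytosolic ribosomes translate the mRNAs of the nucleus, and their proteins are encoded by some of the most abundant mRNAs of a growing cell. Most of these mRNAs begin with a run of pyrimidines at the 5′ end, a feature called the TOP motif, through which their translation follows mTOR signalling. Mitochondrial ribosomes are a separate machine that translates only the few proteins encoded in the mitochondrial genome, all of them parts of the respiratory chain and ATP synthase, and their own proteins are made in the cytosol from nuclear genes. A resting B cell is small with little cytoplasm, and it grows before it divides.

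B cell identity was checked with 8 listed marker genes, among them Cd79a, whose summed level lay between 16773 and 26484 TPM in every library. Of these 8, 5 were called lower against naive in div12_48_d, 5 in div12_48_u, 6 in div12 and 3 in div0. In div12_48_u 1 was called higher, and 0 were in the other activated groups. Of all tested genes 40.6%, 27.2%, 47.5% and 39.6% were called lower in the same order. Erythroid and platelet markers and most myeloid and T and NK cell markers were higher in naive cells. The summed level of 5 erythroid genes was 13.3 to 46.2 TPM in the 8 activated libraries, against 2680 and 3201 TPM in the naive libraries. The sum of 15 myeloid genes was 727 to 1472 TPM in the activated libraries, against 1426 and 3236 TPM in the naive libraries. For 10 T and NK cell genes the sum was 148 to 529 TPM in the activated libraries and 247 and 310 TPM in the naive libraries, and for 4 platelet genes it was 4.18 to 9.60 TPM in the activated libraries and 26.8 and 27.4 TPM in the naive libraries. The T and NK sum was carried by Lck, at 125 to 445 TPM in the activated libraries and 125 and 133 TPM in the naive libraries, while 8 of the 10 genes were called lower in each activated group than in naive cells. Among these, Klra8 was at 0 to 0.494 TPM in the activated libraries, against 29.1 and 51.4 TPM in the naive libraries. Erythroid Slc4a1 and myeloid C1qa rounded to 0.0 TPM in each activated library. Not all myeloid genes went this way. Of the 15, 11 were called lower and 2 higher in div12_48_d and 11 and 3 in div12_48_u against naive. The counts were 11 and 1 in div12 and 12 and 0 in div0. Mpeg1 had 515 and 581 TPM in div12_48_d and 102 and 210 TPM in naive cells. Adgre1 had 139 and 204 TPM in div12_48_d and 23.4 and 65.6 TPM in naive cells. Immediate early genes, a list of 12 that includes Fos and Jun family members, summed to 736 to 3163 TPM in the activated libraries, against 12100 and 7878 TPM in the naive libraries. These values move with every comparison against naive below, and their part in those results was not tested, except that the counts of genes called were recomputed after the TPM values were rescaled without these genes.

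Cytosolic ribosomal protein mRNA took up a larger share of the listed TPM in every activated group than in naive cells. Only 6610 genes are listed, with 23 of the 91 cytosolic names, and each library sums to 1000000 TPM over the listed transcripts. The shares are therefore parts of this list and not of all mRNA of the cell. The 23 genes together made up 20.4% and 19.5% of all TPM in div12_48_d, 17.0% and 19.1% in div12_48_u, 19.7% and 21.8% in div12, 18.9% and 19.0% in div0, and 12.7% and 13.3% in naive cells. The 7 mitochondrial genes summed to 1216 and 1107 TPM in div12_48_d, 973 and 980 TPM in div12_48_u, 1228 and 1179 TPM in div12, 1053 and 1097 TPM in div0, and 875 and 916 TPM in naive cells. In both classes the 2 naive libraries were the lowest, and in neither did they overlap with any activated library. In bulk RNA, fewer cells of a type and less RNA per cell cannot be told apart. Without the transcripts annotated as non-coding, which Rps19 and Rpl22 have, the cytosolic share was 18.9% and 18.0% in div12_48_d, 15.7% and 17.6% in div12_48_u, 18.16% and 20.03% in div12, 17.2% and 17.3% in div0, and 11.7% and 12.4% in naive cells. A share of TPM also says nothing of the amount of ribosomal protein mRNA per cell.

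**Figure D1:**
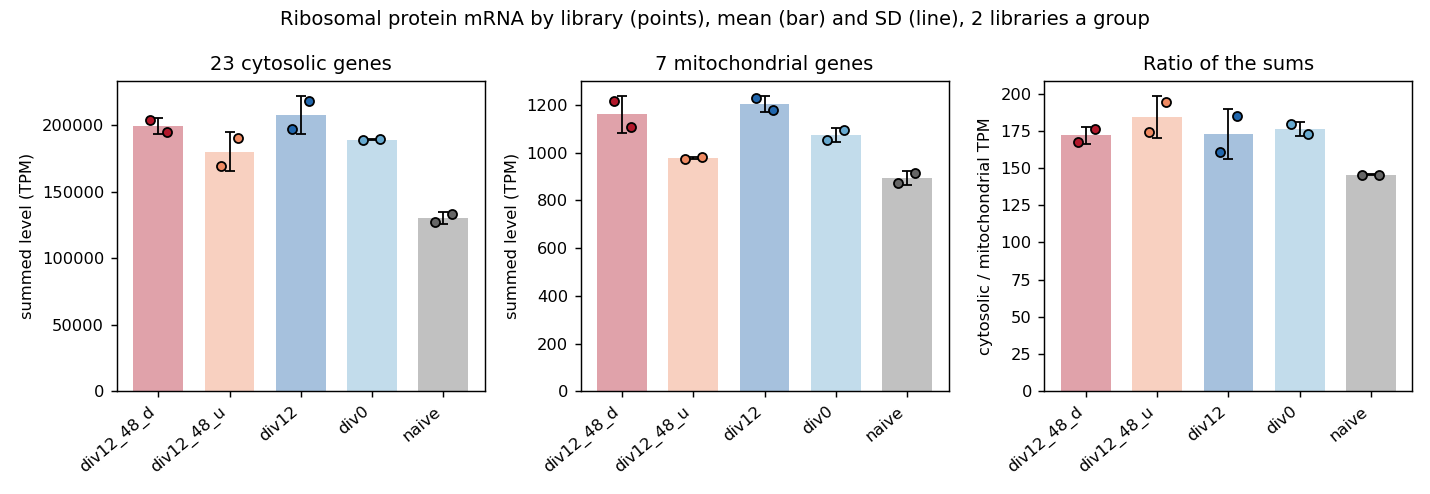
Summed TPM of the 23 cytosolic and the 7 mitochondrial ribosomal protein genes and the ratio of the sums, by library (points), with the mean (bar) and SD (line) of 2 libraries a group. Naive libraries are lowest in each panel, and the ratio lies near 145 in naive cells and between 161 and 194 in the activated libraries.

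In TPM as deposited, the cytosolic sum exceeded its naive level by a larger factor than the mitochondrial sum did in all 4 activated groups. Class medians of the gene log2 fold changes kept this order under median-ratio scaling, which divides each library by a single factor. They were, cytosolic first, 0.87 and 0.55 in div12_48_d, 0.60 and 0.23 in div12_48_u, 1.03 and 0.60 in div12 and 0.74 and 0.50 in div0. The order was also kept when TPM were rescaled to genes that are not members, but not under every kind of scaling. Under quantile normalization, which equalises the distribution of values across libraries, the median log2 fold change against naive was lower for the cytosolic than for the mitochondrial genes in 3 groups, at 0.35 and 0.49 in div12_48_d, 0.39 and 0.51 in div12 and 0.25 and 0.47 in div0. In div12_48_u it was 0.24 for the cytosolic and 0.21 for the mitochondrial genes. As deposited, the cytosolic sum was 1.53-fold the naive mean in div12_48_d, 1.38-fold in div12_48_u, 1.60-fold in div12 and 1.45-fold in div0. The mitochondrial sum was 1.30-fold in div12_48_d, 1.09-fold in div12_48_u, 1.34-fold in div12 and 1.20-fold in div0. These 4 comparisons share the naive libraries and are not independent of each other. The log2 ratio of the cytosolic to the mitochondrial sum averaged 7.42 ± 0.05 in div12_48_d, 7.52 ± 0.11 in div12_48_u, 7.43 ± 0.14 in div12, 7.46 ± 0.04 in div0 and 7.18 ± 0.0039 in naive cells (SD, n = 2 each). Against naive it was higher by 0.24, 0.34, 0.25 and 0.28 in that order of the activated groups. It was not tested, since the genes were chosen with results of these data known. Among the activated groups themselves the ratio differed by at most 0.10, while the 2 div12 libraries alone were 7.33 and 7.53.

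Levels within the cytosolic ribosome spanned a wide range although each protein is needed in equal number. Rps19, a small-subunit protein needed to process the precursor of the small rRNA, had the highest mean when the transcripts of a gene were summed. The sum stood at 17862 and 17285 TPM in div12_48_d, 14348 and 16361 TPM in div12_48_u, 18338 and 20587 TPM in div12, 19080 and 19096 TPM in div0, and 10648 and 11581 TPM in naive cells. Both naive libraries were below every activated library. Most of it was assigned to a transcript annotated as non-coding, NR_153409, with 80.5% to 87.7% of the Rps19 level in every library. Without its non-coding transcripts Rps19 had 3085 and 2452 TPM in div12_48_d, 1583 and 2194 TPM in div12_48_u, 2416 and 2934 TPM in div12, 2667 and 2793 TPM in div0, and 1143 and 2084 TPM in naive cells, where div12_48_u overlapped with naive and was not called against it (0.27, limma adjusted p = 0.449). Its mean was then rank 22 of the 23 cytosolic genes. Rpl32 and Rpl28, of the large subunit, came next. Lowest was Rpl22, a large-subunit protein for which a close paralog exists, at 995 and 970 TPM in div12_48_d, 845 and 916 TPM in div12_48_u, 903 and 1054 TPM in div12, 905 and 868 TPM in div0, and 548 and 618 TPM in naive cells. Mitochondrial members were lower still. Mrpl12, the most abundant of them, never exceeded 342 TPM, and Mrps27, the least abundant, never exceeded 71.7 TPM. Ribosomal protein genes have many near-identical copies in the genome, and how the authors' counting divided shared reads is not given in the sources used here. Rpl34-ps1, a copy of the Rpl34 gene in 1 exon that carries a pseudogene name, was listed at 6208 to 10476 TPM. Rpl34 itself is not among the listed genes, and the reads of Rpl34-ps1 cannot be assigned to it with certainty. Rpl34-ps1 is counted among the 23 cytosolic genes throughout.

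Stimulated but undivided cells already differed from naive cells. In div0 against naive, 23 of 23 cytosolic genes were called higher, with limma on log2(TPM + 1), a Benjamini-Hochberg adjusted p under 0.05 over 4427 tested genes and all 10 libraries in the fit. Of all tested genes 15.4% were called higher and 39.6% lower in this comparison. The median log2 fold change was 0.51 for the cytosolic genes and 0.27 for the mitochondrial ones, against -0.24 for all tested genes; under quantile normalization they were 0.25, 0.47 and 0.07, so both the order of the classes and the sign over all genes turned. Rpsa, a small-subunit protein that also serves as a laminin receptor, had one of the largest differences. Its level was 7807 and 8164 TPM in div0 and 4525 and 4563 TPM in naive cells, a log2 fold change of 0.81 ± 0.08 (SE, limma adjusted p = 1.27e-04). Rpl29, of the large subunit, had 5498 and 5604 TPM in div0 and 3117 and 3234 TPM in naive cells (0.81 ± 0.08, limma adjusted p = 1.13e-04). At the other end, Rpl5, which binds the 5S rRNA with Rpl11 and can restrain Mdm2, had 3334 and 3376 TPM in div0 and 2840 and 2807 TPM in naive cells (0.25 ± 0.08, limma adjusted p = 0.0315). Libraries of the 2 groups did not overlap for any cytosolic gene, which held in the higher direction for 24.3% of all tested genes. Under quantile normalization 14 cytosolic genes were called, and Rpl5 and Rpl38 turned to log2 fold changes of -0.0028 and -0.015. Over all 4427 tested genes 1272 were called higher and 1020 lower under this normalization.

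Mitochondrial genes were split in the same comparison, with 4 of 7 called higher. Mrpl12, a large-subunit protein that also binds the mitochondrial RNA polymerase, had 255 and 290 TPM in div0 and 140 and 192 TPM in naive cells (0.73 ± 0.15, limma adjusted p = 0.00373). Mrpl34 was at 140 and 139 TPM in div0 and 86.0 and 116 TPM in naive cells (0.48 ± 0.13, limma adjusted p = 0.0129). Mrps27, a small-subunit protein of the pentatricopeptide repeat family, and Mrps17 were the other two. Mrps18b, 1 of 3 paralogs of a bacterial small-subunit protein, went the other way at 114 and 116 TPM in div0 and 137 and 132 TPM in naive cells, but did not pass the test (-0.23 ± 0.09, limma adjusted p = 0.0522). With either div0 library left out, 1 mitochondrial gene was called.

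In div12 against naive, 22 of 23 cytosolic genes were called higher and 4 of 7 mitochondrial genes, where 19.4% of all tested genes were called higher and 47.5% lower. Medians were 0.70 for the cytosolic genes, 0.27 for the mitochondrial ones and -0.35 for all tested genes, and 0.39, 0.51 and 0.06 under quantile normalization. Rpsa stood at 9709 and 10411 TPM in div12 and 4525 and 4563 TPM in naive cells (1.15 ± 0.08, limma adjusted p = 1.17e-05), which made it the largest difference of any of the 30 genes in a comparison. Mrpl12 had 342 and 317 TPM in div12 and 140 and 192 TPM in naive cells (1.00 ± 0.15, limma adjusted p = 4.42e-04). The cytosolic gene not called was Rps24, at 4077 and 4902 TPM in div12 and 3874 and 3745 TPM in naive cells (0.23 ± 0.10, limma adjusted p = 0.0681). Mrps18b, Mrps18a and Mrpl54 were the mitochondrial genes not called.

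**Figure D2:**
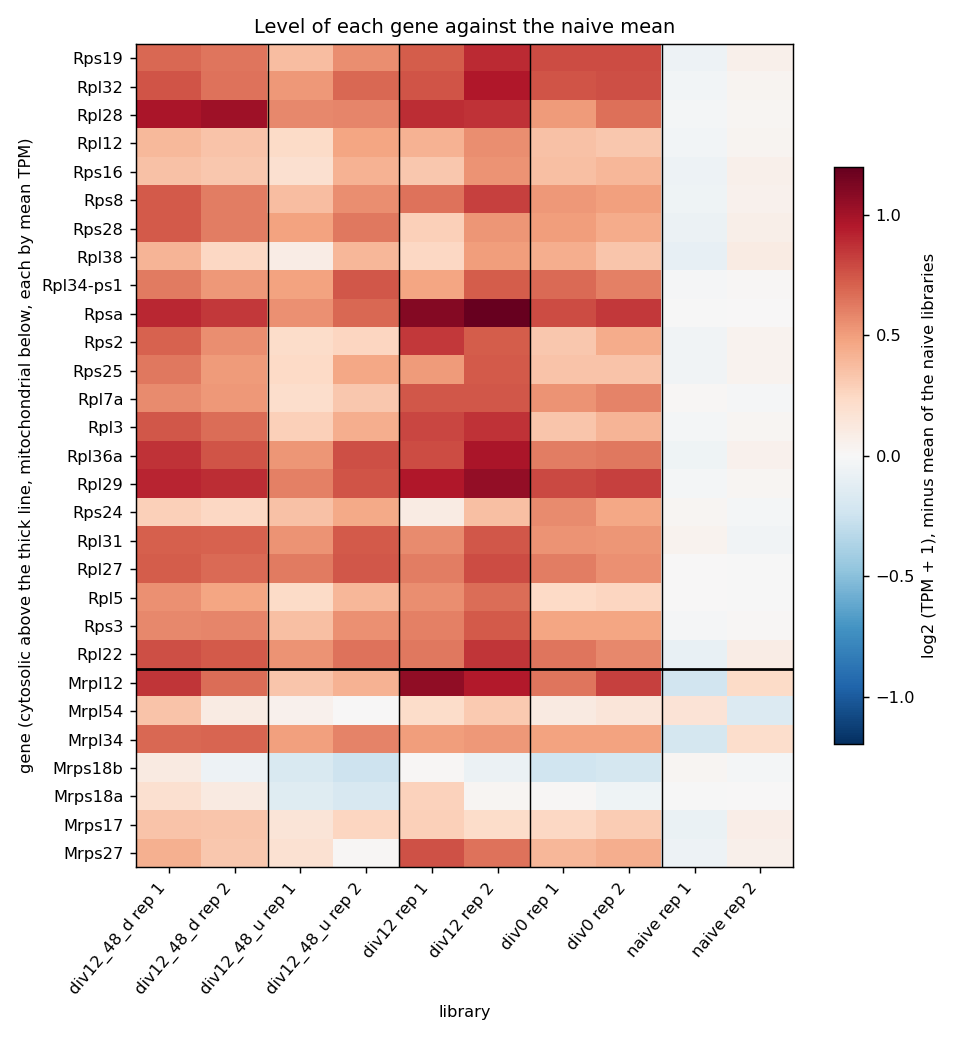
Level of 29 of the 30 genes in each of the 10 libraries as log2(TPM + 1) minus the mean of the naive libraries, cytosolic genes above the thick line and mitochondrial genes below, each class by mean TPM. Cytosolic rows are above the naive mean in each activated library, while Mrps18a, Mrps18b and Mrpl54 lie near or below it in several.

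Most cytosolic genes were also higher in Phase II cells than in naive cells. In div12_48_d against naive, 22 cytosolic and 4 mitochondrial genes were called higher, where 21.8% of all tested genes were called higher and 40.6% lower. Rpl28 led the cytosolic genes with 15852 and 16325 TPM in div12_48_d and 7975 and 8185 TPM in naive cells (0.99 ± 0.08, limma adjusted p = 2.66e-05). Rpl38, a large-subunit protein whose loss in the mouse alters Hox mRNA translation and the axial skeleton, was the gene not called, at 10640 and 9515 TPM in div12_48_d and 7507 and 8566 TPM in naive cells (0.33 ± 0.14, limma adjusted p = 0.0649). In div12_48_u against naive, 20 cytosolic genes were called higher and 1 mitochondrial gene, Mrpl34, where 15.2% of all tested genes were called higher and 27.2% lower. Cytosolic medians were 0.66 in div12_48_d and 0.47 in div12_48_u, mitochondrial medians were 0.34 and 0.10, and the medians of all tested genes were -0.21 and -0.11. Rpl38, Rps16 and Rps2 were the cytosolic genes not called in div12_48_u. With quantile normalization 13 cytosolic genes were called in div12_48_u against naive, where 1211 of all 4427 tested genes were called higher and 812 lower. The single mitochondrial call became 0 without the library div12_48_u replicate 2 and 3 without naive replicate 2.

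The TPM values were also rescaled without the other-cell and immediate early genes. Against naive, 21, 20, 22 and 23 cytosolic genes were then called in div12_48_d, div12_48_u, div12 and div0. Of the mitochondrial genes 4, 1, 4 and 5 were called in the same order. Shares over all tested genes were not recorded for this rescaling. In TPM as deposited, naive was the lowest of the 5 group means for 23 of 23 cytosolic and 5 of 7 mitochondrial genes. Of the cytosolic genes 15 had their highest mean in div12, 4 in div12_48_d (Rpl22, Rpl28, Rpl31 and Rps28) and 3 in div0 (Rpl34-ps1, Rpl38 and Rps24). For the mitochondrial genes the highest mean was in div12_48_d for 4 and in div12 for 3, which were Mrpl12, Mrpl54 and Mrps27. None of the 30 genes was called between div12_48_d and div12, so the order of these groups is not resolved.

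Because the cytosolic genes moved together against naive, the letters at their transcription starts are shown. RefSeq start regions of 250 bases before to 50 after a start, on GRCm38.p6, were at hand for 23 of the 30 genes, 17 cytosolic and 6 mitochondrial, and for 27025 genes in all. A pyrimidine start was taken as a C followed by at least 5 C or T bases on the gene's strand, beginning within 5 bases of the annotated start. It was found in 7 of 17 cytosolic genes (41.2%), in 0 of 6 mitochondrial genes and in 11.9% of all genes. The 7 genes were Rpl12, Rpl28, Rpl31, Rpl38, Rpl7a, Rps2 and Rps24. Their log2 fold changes in div12 against naive ran between 0.23 and 0.87, and those of the other 10 cytosolic genes between 0.37 and 1.15, so the ranges overlap. Annotated starts can miss the used start by some bases, and an absent match says only that these letters are not in that place. The lines give 40 bases before and 20 from the start, with the pyrimidine run in capitals, for 4 cytosolic genes that show it and, with other motifs in capitals, for 2 mitochondrial genes that do not.
Rpl7a, chr2:26910767-26910826, plus strand: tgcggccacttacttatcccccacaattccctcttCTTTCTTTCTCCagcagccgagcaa
Rpl28, chr7:4792925-4792984, plus strand: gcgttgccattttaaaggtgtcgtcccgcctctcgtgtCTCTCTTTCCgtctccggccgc
Rpl38, chr11:114668540-114668599, plus strand: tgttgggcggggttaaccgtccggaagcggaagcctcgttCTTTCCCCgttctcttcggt
Rps2, chr17:24720023-24720082, plus strand: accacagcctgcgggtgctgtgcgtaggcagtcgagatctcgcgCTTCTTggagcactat
Mrps18a, chr17:46110964-46111023, plus strand: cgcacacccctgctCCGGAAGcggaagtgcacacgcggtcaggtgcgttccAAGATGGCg
Mrpl34, chr8:71464886-71464945, plus strand: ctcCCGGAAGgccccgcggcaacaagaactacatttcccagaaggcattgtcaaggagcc

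Capitals in the mitochondrial lines mark CCGGAAG, a core that factors of the ETS family such as GABP bind, and AAGATGGC, a core of the YY1 motif. On either strand of the 300-base regions, CCGGAAG occurred in 4 of 6 mitochondrial genes (66.7%), in 5 of 17 cytosolic genes (29.4%) and in 9.93% of all genes. AAGATGGC occurred in 2 of 6 mitochondrial genes (33.3%), in 1 of 17 cytosolic genes (5.88%) and in 3.19% of all genes. GGGCGG, a core bound by SP factors, was in 2 of 6 mitochondrial genes (33.3%), in 11 of 17 cytosolic genes (64.7%) and in 38.2% of all genes. CACGTG, the E-box that MYC with MAX can bind, was in 0 of 6 mitochondrial genes, in 1 of 17 cytosolic genes, Rps19, and in 8.09% of all genes. TATAAA, the TATA box core, was in 1 of 6 mitochondrial genes, in 4 of 17 cytosolic genes and in 15.7% of all genes. The palindromic NRF-1 motif was in 0 of 6 mitochondrial genes, in 0 of 17 cytosolic genes and in 1.07% of all genes, and with 1 free base in the middle, which includes the strict form, in 1 of 6, in 2 of 17 and in 5.19%. The other motifs do not contain one another, and a match is a description of the letters and no evidence of binding.

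Division in Phase I was addressed by div12 against div0, cells given the same pulse and taken at the same time. Of the cytosolic genes 4 were called higher and 0 lower, and of the mitochondrial genes 0 were called in either direction, 2 of them with an unadjusted limma p under 0.05. Among all tested genes 3.68% were called higher and 5.08% lower, and 1267 of the 4427 had an unadjusted limma p under 0.05. Medians were 0.15 for the cytosolic genes, 0.17 for the mitochondrial genes and -0.07 for all tested genes. Rpl3, a large-subunit protein that reaches toward the peptidyl transferase centre, had 7714 and 8082 TPM in div12 and 5575 and 5889 TPM in div0 (0.46 ± 0.08, limma adjusted p = 0.0205). Rps2, a small-subunit protein at the entry of the mRNA channel, had 9630 and 8863 TPM in div12 and 6692 and 7296 TPM in div0 (0.40 ± 0.09, limma adjusted p = 0.0351). Both genes had each div12 library above each div0 library; on GRCm38.p6 Rpl3 lies at chr15:80077781-80083406 and Rps2 at chr17:24718121-24721927. Rpl5 followed with 4145 and 4488 TPM in div12 and 3334 and 3376 TPM in div0 (0.36 ± 0.08, limma adjusted p = 0.0366), and Rpsa with 9709 and 10411 TPM in div12 and 7807 and 8164 TPM in div0 (0.33 ± 0.08, limma adjusted p = 0.0426). These calls lie close to the threshold. With any 1 of the 4 libraries compared left out, 0 cytosolic genes were called, with div12_48_u replicate 2 left out 2 were, and with no filter on low values 1 was.

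Phase II posed the same question in cells that had already divided. In div12_48_d against div12_48_u, 4 cytosolic genes and 1 mitochondrial gene were called higher and 0 lower, while 12.2% of all tested genes were called higher and 13.4% lower. The medians were 0.15 for cytosolic genes, 0.24 for mitochondrial genes and -0.08 for all tested genes. Rpl28 stood at 15852 and 16325 TPM in div12_48_d and 12063 and 12127 TPM in div12_48_u (0.41 ± 0.08, limma adjusted p = 0.00872). Rps2 was at 8721 and 7902 TPM in div12_48_d and 6230 and 6385 TPM in div12_48_u (0.40 ± 0.09, limma adjusted p = 0.0142). Rpl3 had 7410 and 7038 TPM in div12_48_d and 5421 and 6005 TPM in div12_48_u (0.34 ± 0.08, limma adjusted p = 0.0185). In all 3 the groups did not overlap. Rpl7a, of the large subunit, had 6864 and 6611 TPM in div12_48_d and 5356 and 5795 TPM in div12_48_u (0.27 ± 0.07, limma adjusted p = 0.0285). Without div12_48_d replicate 1 no cytosolic gene was called, and without div12_48_u replicate 1 only 1 was.

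Mitochondrial genes were all above in the divided Phase II cells, in that both div12_48_d libraries exceeded both div12_48_u libraries for 7 of 7, as for 28.6% of all tested genes. Mrps18a, another of the 3 paralogs, was the gene called, at 141 and 133 TPM in div12_48_d and 111 and 107 TPM in div12_48_u (0.32 ± 0.10, limma adjusted p = 0.0425). Its call was absent when any of the 4 libraries compared or either div0 library was left out, while 2 mitochondrial genes were called when either naive library was left out. Mrpl12 had a larger difference with a larger error, at 297 and 260 TPM in div12_48_d and 207 and 218 TPM in div12_48_u (0.39 ± 0.15, limma adjusted p = 0.0897). Cytosolic libraries did not overlap in the higher direction for 12 of 23 genes, and Rps24 was below in both div12_48_d libraries.

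Rps2 and Rpl3 were called in both division contrasts. Between the contrasts, which share no library, the log2 fold changes of the members ran together, with Pearson's r = 0.82 over the 23 cytosolic genes and 0.83 over the 7 mitochondrial genes (Spearman's rho 0.80 and 0.82). These are correlations across genes, which are not independent replicates, and all the genes of a contrast share the same 4 libraries. The sign was positive in both contrasts for 24 of the 30 genes and negative in both for 3, among them Rpl34-ps1 and Rps24. Neither the correlations nor the shared signs were computed over all tested genes. Whether this agreement is particular to ribosomal protein genes is therefore not known. Rps28, Rpl38 and Mrps17 differed in sign between the contrasts, and none of the 3 was called in either. The Phase II minus Phase I difference of the contrasts was called for 0 of the 30 genes and 0 of all 4427 tested genes (0%). An unadjusted limma p under 0.05 was reached by 0 of the 30 and by 438 of the 4427. The log2 value of this difference lay between -0.17 ± 0.12 for Rpl5 and 0.18 ± 0.15 for Rps28. This bounds neither gene closely at 2 libraries a group.

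**Figure D3:**
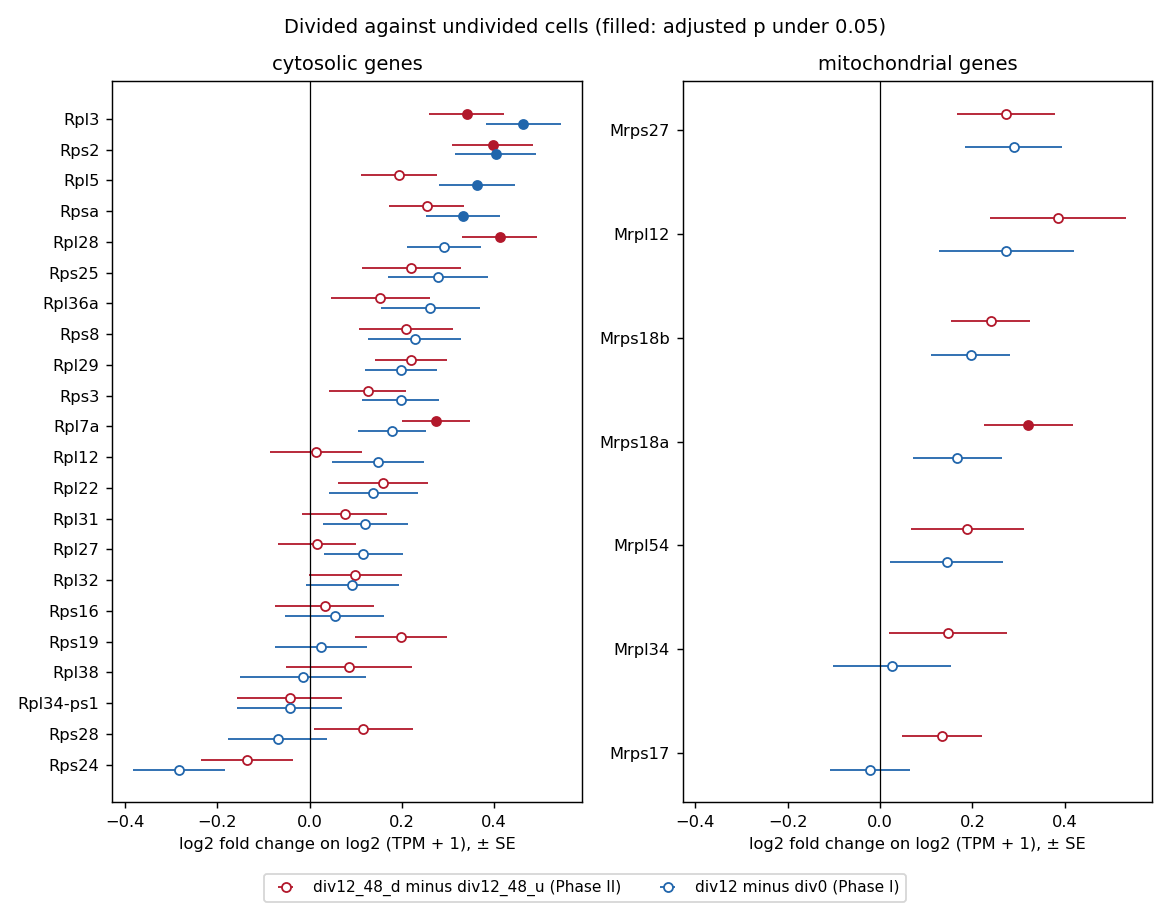
Log2 fold change (± SE, limma on log2(TPM + 1)) of divided against undivided cells for 29 of the 30 genes in Phase II (div12_48_d minus div12_48_u) and Phase I (div12 minus div0), with filled points where the adjusted p was under 0.05. Most points lie right of 0 in both phases, Rpl3 and Rps2 are filled in both, and Rps24 lies left of 0 in both.

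Division effects ran with the length of the coding sequence. Rpl3, Rps2, Rpl5 and Rpsa, called in Phase I, have coding lengths of 1209, 879, 891 and 885 bases, the longest among the 22 cytosolic genes with a length. Over these 22 genes the log2 fold change correlated with the log of coding length in div12 against div0 (r = 0.65) and in div12_48_d against div12_48_u (r = 0.47). Over the 7 mitochondrial genes r was 0.85 in Phase I and 0.61 in Phase II, with Mrps27 of 1245 bases at one end and Mrpl34 of 276 bases at the other. Across 4304 tested genes r was -0.17 and -0.18, and across 98 other highly abundant genes it was -0.10 in both. Correlations here are across genes of the same libraries and carry no p. Replicates also differed along length. Over the cytosolic genes, replicate 2 minus replicate 1 gave r = -0.66 in div12, 0.57 in div0 and -0.45 in naive cells. In Phase II it gave -0.36 in div12_48_u and 0.14 in div12_48_d. For the mitochondrial genes r was -0.51, 0.11, -0.14, -0.81 and -0.34 in the same order. Across the 4304 tested genes it was -0.31, -0.00089, -0.028, -0.17 and 0.13, and across the 98 abundant genes -0.45, 0.14, 0.038, -0.405 and 0.069. The part of this spread between replicates in the division effects was not tested. Among short genes, Rps28 of 207 bases had 9241 and 10869 TPM in div12 and 10720 and 10303 TPM in div0, and these groups overlapped (-0.07 ± 0.11, limma adjusted p = 0.735). Rpl28, at 411 bases, lay above the other genes of like length in Phase II, as the values given above show.

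**Figure D4:**
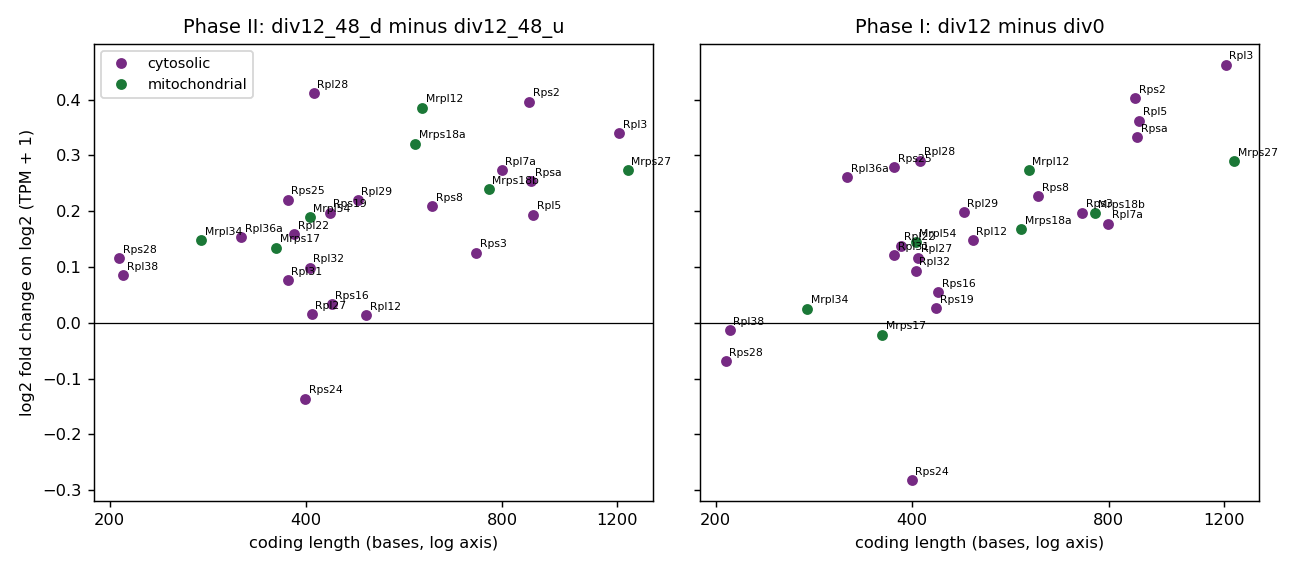
Log2 fold change of divided against undivided cells by coding length (log axis) for 21 of the 22 cytosolic and the 7 mitochondrial genes with a length, in Phase II (left) and Phase I (right). Longer genes such as Rpl3, Rps2 and Mrps27 lie high in both panels, Rps24 lies lowest in both, and Rpl28 stands above other genes of its length in Phase II.

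Against their cells of origin, the divided Phase II cells showed no called difference. In div12_48_d against div12, 0 of 23 cytosolic and 0 of 7 mitochondrial genes were called with limma, while 11.9% of all tested genes were called higher and 4.09% lower. Unadjusted limma p-values were under 0.05 for 3 cytosolic genes and 1 mitochondrial gene, and for 1363 of all 4427 tested genes. The cytosolic median was -0.07, and 0.01 under quantile normalization, the mitochondrial median was 0.01, with -0.12 and -0.10 under median-ratio scaling and quantile normalization, and that of all tested genes was 0.08. Rpsa had 8464 and 8164 TPM in div12_48_d and 9709 and 10411 TPM in div12 (-0.27 ± 0.08, limma adjusted p = 0.0531). Mrps27 had 56.5 and 52.5 TPM in div12_48_d and 71.7 and 66.1 TPM in div12 (-0.33 ± 0.11, limma adjusted p = 0.0667). Both narrowly missed the threshold, and leaving out either naive library gave 1 called mitochondrial gene.

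Phase II cells that did not divide again had less of several of these mRNAs than div12 cells. In div12_48_u against div12, 8 of 23 cytosolic genes fell and 0 rose, and 3 of 7 mitochondrial genes fell and 0 rose, while 13.6% of all tested genes were called lower and 27.7% higher. The medians were -0.23 for the cytosolic genes, -0.24 for the mitochondrial genes and 0.16 for all tested genes. The genes that fell were Rpl28, Rpl29, Rpl3, Rpl5, Rpl7a, Rps19, Rps2 and Rpsa of the cytosolic ribosome and Mrpl12, Mrps18a and Mrps27 of the mitochondrial one. Rps2 had 6230 and 6385 TPM in div12_48_u and 9630 and 8863 TPM in div12 (-0.55 ± 0.09, limma adjusted p = 0.00187). Rpsa had 6647 and 7313 TPM in div12_48_u and 9709 and 10411 TPM in div12 (-0.53 ± 0.08, limma adjusted p = 0.00156). In both the libraries were well apart. Without its non-coding transcripts Rps19 was not called (-0.51, limma adjusted p = 0.162), which left 7 cytosolic genes. Rpl7a had 5356 and 5795 TPM in div12_48_u and 7756 and 7736 TPM in div12 (-0.48 ± 0.07, limma adjusted p = 0.00163). Of the mitochondrial genes, Mrpl12 had 207 and 218 TPM in div12_48_u and 342 and 317 TPM in div12 (-0.63 ± 0.15, limma adjusted p = 0.00996). Mrps27 had 47.7 and 42.3 TPM in div12_48_u and 71.7 and 66.1 TPM in div12 (-0.61 ± 0.11, limma adjusted p = 0.00264).

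Rps28 had a positive log2 difference that was not called, with 10546 and 11730 TPM in div12_48_u and 9241 and 10869 TPM in div12, which overlap (0.15 ± 0.11, limma adjusted p = 0.297). Across the 22 cytosolic genes the log2 fold change in this comparison ran against length with r = -0.67, and across all tested genes with length r was 0.20. Without div12_48_u replicate 1 or div12 replicate 2, 4 cytosolic genes were called, and without div12_48_u replicate 1 or div12 replicate 1, 1 mitochondrial gene was.

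Rps24 had the lowest log2 fold change of the cytosolic genes in both division contrasts, and several of its transcripts are listed. As given above, it was not the only gene below 0 in both. Rps24 protein sits in the small subunit and is needed to mature the small rRNA, and in humans mutations of the gene, as of RPS19, cause Diamond-Blackfan anaemia. Summed over transcripts, Rps24 had 4632 and 4517 TPM in div12_48_d, 4843 and 5217 TPM in div12_48_u, 4077 and 4902 TPM in div12, 5644 and 5235 TPM in div0, and 3874 and 3745 TPM in naive cells. Divided cells were below undivided cells in each library of both phases, without a call (-0.14 ± 0.10, limma adjusted p = 0.351 in Phase II, and -0.28 ± 0.10, limma adjusted p = 0.109 in Phase I). The gene lies at chr14:24490678-24496960 on GRCm38.p6. Of its level, 98.4% to 99.6% in every library came from the transcript NM_207634, which skips a 20-base exon at chr14:24495430-24495449.

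A minor transcript that includes this exon, NM_011297, differed far more; it was singled out after its values were seen. It stood at 8.51 and 15.2 TPM in div12_48_d, 30.0 and 45.0 TPM in div12_48_u, 4.79 and 3.33 TPM in div12, 47.4 and 28.8 TPM in div0, and 38.4 and 44.0 TPM in naive cells. Every library of the divided groups was below every library of the other 3 groups. Another transcript with this exon and a further 18-base exon, NM_207635, was at 1.06 and 1.24 TPM in div12_48_d, 1.61 and 2.55 TPM in div12_48_u, 1.87 and 0.809 TPM in div12, 1.59 and 2.56 TPM in div0, and 1.65 and 1.59 TPM in naive cells. Its div12 libraries overlapped with those of div0 and naive, so it did not separate the groups as NM_011297 did. In limma over all 8165 tested transcripts, the log2 fold change was -1.60 ± 0.35 in div12_48_d against div12_48_u (adjusted p = 0.0267), where 9.65% of transcripts were called, and -2.92 ± 0.35 in div12 against div0 (adjusted p = 0.0268), where 0.784% were. It was the 1 transcript called in each of these comparisons among the 39 tested transcripts of members with more than 1. In div12_48_u against div12 it was 2.91 ± 0.35 (adjusted p = 0.00156), where 23.2% of transcripts were called. Against naive it was -1.76 ± 0.35 in div12_48_d (adjusted p = 0.00457; 43.1% of transcripts called) and -3.07 ± 0.35 in div12 (adjusted p = 2.79e-04; 50.4% called). It did not pass the test against naive in div12_48_u (-0.16 ± 0.35, adjusted p = 0.776) or in div0 (-0.15 ± 0.35, adjusted p = 0.763). The difference of the phases was not called (1.32 ± 0.49, adjusted p = 0.540).

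The lines give the last 20 bases of exon 4 in lower case and the first 20 bases of the next exon in capitals, to show where the transcripts part, read from the GRCm38.p6 genome on the plus strand.
NM_011297, exon included: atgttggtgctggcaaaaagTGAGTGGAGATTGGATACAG
NM_207634, exon skipped: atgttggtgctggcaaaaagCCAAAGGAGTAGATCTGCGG
In the included form the next codon is the stop TGA, which gives 390 coding bases before the stop, 130 codons, against 399 bases, 133 codons, in the skipped form. The annotated transcripts also end at different places, at 24495845 for NM_011297 and 24496959 for NM_207634 of chromosome 14, so reads outside the 20-base exon can also tell them apart. The division calls rest on few libraries. In div12 against div0 the adjusted p was 0.0601 to 0.268 without either div12_48_u library or any of the 4 libraries compared, 0.0784 with the 2 groups fitted alone and 0.0752 with no filter. In div12_48_d against div12_48_u it was 0.0645 to 0.174 without div12_48_d replicate 1 or either div12_48_u library and 0.0528 with no filter. The log2 fold change stayed negative in each of these.

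**Figure D5:**
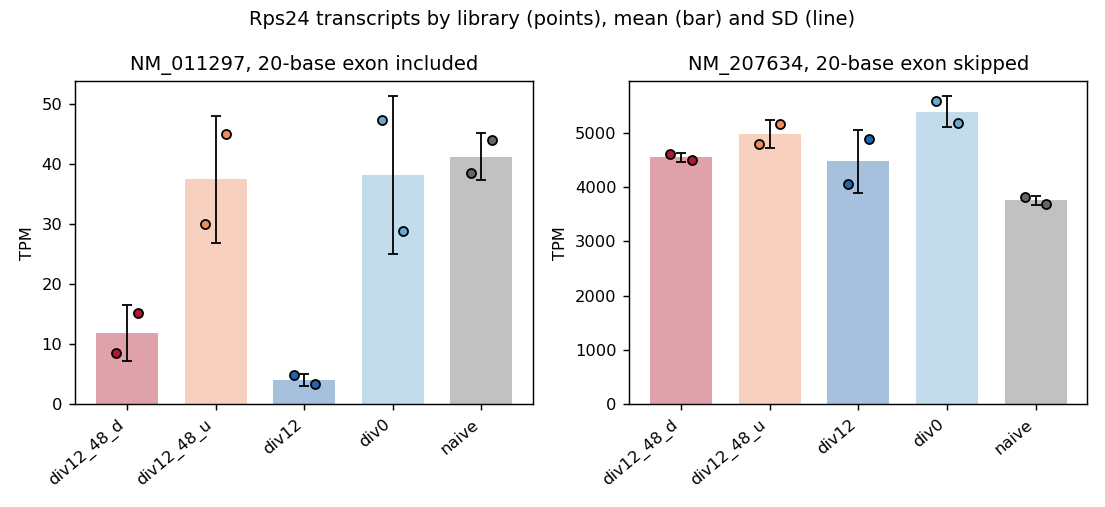
TPM of the Rps24 transcripts NM_011297 (20-base exon included, as in the rarer NM_207635, not drawn) and NM_207634 (exon skipped) by library (points), with the mean (bar) and SD (line) of 2 libraries a group; the 2 axes differ in scale. NM_011297 is below 16 TPM in the divided groups div12_48_d and div12 and above 28 TPM in the other 3 groups.

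Other genes of the same machinery, from lists chosen with these results known, were read beside the members. Of 11 tested translation factors and other mRNAs with a TOP motif, 9 were higher in div12_48_d, 6 in div12_48_u, 10 in div12 and 7 in div0, each against naive, and 0 were lower. The shares of all tested genes called higher were 21.8%, 15.2%, 19.4% and 15.4% in the same order. Those called lower were 40.6%, 27.2%, 47.5% and 39.6%. Eef1b2, an exchange factor that recharges elongation factor 1, had 2077 and 1890 TPM in div12_48_d, 1474 and 1590 TPM in div12_48_u, 1996 and 2146 TPM in div12, 1593 and 1624 TPM in div0, and 918 and 957 TPM in naive cells. It was called in both division contrasts, by 0.37 ± 0.08 in Phase II and 0.36 ± 0.08 in Phase I (limma adjusted p = 0.0119 and 0.0351). In this list 5 genes were called higher in div12_48_d against div12_48_u and 6 in div12 against div0, and 7 fell in div12_48_u against div12. Over all tested genes 12.2% and 3.68% were called higher in the division contrasts, and 13.6% were called lower in div12_48_u against div12. Fau, a ribosomal protein made as a fusion with a ubiquitin-like protein, had 11776 and 12415 TPM in div12_48_d, 12222 and 14897 TPM in div12_48_u, 11037 and 12494 TPM in div12, 12939 and 12557 TPM in div0, and 9847 and 10979 TPM in naive cells. It was called against naive in div12_48_u alone of the activated groups (0.38 ± 0.12, limma adjusted p = 0.0307). Its sign went against most cytosolic members elsewhere, without a call, at -0.16 ± 0.12 in Phase II division, -0.12 ± 0.12 in Phase I division and 0.20 ± 0.12 in div12_48_u against div12 (limma adjusted p = 0.354, 0.558 and 0.202).

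Genes of ribosome assembly were listed in part, 15 of 83 planned. Against naive, 5 of the 15 rose and 2 fell in div12_48_d, 2 rose and 1 fell in div12_48_u, 7 rose and 3 fell in div12, and 4 rose and 3 fell in div0. Of all tested genes 21.8%, 15.2%, 19.4% and 15.4% were called higher in these comparisons, in the same order. In div12_48_d against div12_48_u 5 rose and 1 fell, beside 12.2% of all tested genes called higher and 13.4% lower. In div12 against div0 2 rose and 0 fell, beside 3.68% higher and 5.08% lower. In div12_48_u against div12 1 rose and 8 fell, beside 27.7% higher and 13.6% lower. Npm1, the nucleolar chaperone nucleophosmin, had 3485 and 3223 TPM in div12_48_d, 2228 and 2239 TPM in div12_48_u, 3739 and 3676 TPM in div12, 2383 and 2530 TPM in div0, and 1555 and 1544 TPM in naive cells. Divided groups were above their undivided counterparts without overlap, by 0.58 ± 0.07 in Phase II and 0.59 ± 0.07 in Phase I (limma adjusted p = 0.00133 and 0.0109). Of 7 tested genes of mitochondrial translation and its ribosome's assembly, out of 39 planned, 1 rose and 0 fell in div12_48_d against div12_48_u. It was Tfb1m, a methyltransferase of the mitochondrial small rRNA (0.59 ± 0.14, limma adjusted p = 0.0170). Of all tested genes 12.2% were called higher and 13.4% lower in that contrast. In div12 against div0 0 of the 7 were called, and 0 had an unadjusted limma p under 0.05, beside 1267 of all 4427 tested genes. The shares over all tested genes there were 3.68% higher and 5.08% lower. In div12_48_u against div12 1 of the 7 rose and 2 fell, beside 27.7% higher and 13.6% lower.

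Of 16 tested known regulators of these genes, 9 were lower in div12_48_d, 6 in div12_48_u, 13 in div12 and 10 in div0, each against naive, and 0 were higher. Of all tested genes 40.6%, 27.2%, 47.5% and 39.6% were called lower in the same comparisons. In div12_48_u against div12, where members fell, 5 regulators rose and 0 fell, while 27.7% of all tested genes were called higher. Of the 16, 1 fell in each division contrast and 0 rose. The share of all tested genes called lower was 13.4% in the Phase II contrast and 5.08% in the Phase I contrast. Myc, a transcription factor that drives ribosome production, was at 189 and 180 TPM in div12_48_d, 212 and 173 TPM in div12_48_u, 174 and 125 TPM in div12, 177 and 202 TPM in div0, and 1028 and 429 TPM in naive cells. Naive libraries were the highest and differed most between themselves. Myc is an immediate early gene, and that list was higher in naive libraries as given above. In the division contrasts Myc did not pass the test, with -0.05 ± 0.35 in Phase II and -0.36 ± 0.35 in Phase I (limma adjusted p = 0.938 and 0.552).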

How the data were processed

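The deposited table holds TPM values by RefSeq transcript, made by the authors, for 13128 transcripts and 10 libraries; each library sums to 1000000 TPM. Libraries were made from rRNA-depleted total RNA (100 ng) and read as 50 bp single ends on an Illumina NextSeq, per the labels' protocols. The submitters' processing notes name the build mm10 and HISAT2, Salmon, featureCounts, HTSeq and DESeq2, without versions or roles; use of strand is not given in the sources used here. TPM keeps no depth, so no counting interval is given. The 13065 transcripts with a usable symbol were added up to 6610 genes, and 63 others were not used. limma 3.58.1 (R 4.3.3) was fitted to log2(TPM + 1) of the 4427 genes that reached 1 TPM in 2 or more libraries, over all 10 libraries with group as the only term and a mean-variance trend (5 residual degrees of freedom; two-sided, Benjamini-Hochberg threshold 0.05); a fold change on this scale slightly understates that of low genes. The model was tested on simulated data. Coding lengths and exons are from GENCODE M21, start regions from RefSeq, both on GRCm38.p6. Members and lists were chosen with earlier results of these data known. Named genes are the 4 most abundant of each class, the 3 largest rises and falls of a comparison, and members that moved against their class; others were added where a sentence turned on them after their values were seen. Some genes are not reported here by name, and 1 of the 30 is not drawn in the plots that name genes; sums, counts and medians include them. Tables and figures were made with pandas 2.3.3 and matplotlib 3.10.9 under Python 3.11.15.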

Additional observations from a re-analysis of the deposited data

How the results depend on the processing

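With 2 libraries a group and unknown depth, only differences well beyond the spread of the pooled fit can be called. Of 120 called gene results, tried under 2660 alternative values, 66 kept the call throughout, 2459 values stayed called with the same direction, 198 were no longer called and 3 turned sign, all under quantile normalization: Rpl38 and Rpl5 at -0.015 and -0.0028 in div0 against naive, and Rpl38 at -0.047 in div12 against naive. The causes were not tested. Pseudocounts of 0.1 and 5 and rescaling without other-cell and immediate early genes, and leaving out non-coding transcripts, both added after seeing the data, moved no count of called genes by over 1.5 times.

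Against naive, the cytosolic count was 14 in div0 and 13 in div12_48_u under quantile normalization. The mitochondrial count in div12 was 7 under median-ratio scaling and under quantile normalization; in div12_48_u it was 3 under each of these and with TPM rescaled to genes that are not members. With only the groups compared in the fit, it was 2 in div12_48_d, 0 in div12_48_u, 2 in div12 and 2 in div0. Leaving out 1 library gave 0 to 3 in div12_48_u and 1 to 5 in div0. In div12 against div0 the cytosolic count was 1 with no filter, 1 with the replicate number as a block and 0 to 4 without 1 library; the mitochondrial count was 1 under median-ratio scaling and quantile normalization. In div12_48_d against div12_48_u the cytosolic count was 2 with only the groups compared and 0 to 4 without 1 library. The mitochondrial count there was 4 under median-ratio scaling, 3 under quantile normalization, 2 with TPM rescaled to genes that are not members, 0 with the most abundant transcript, 2 with only the groups compared, 2 without the naive group and 0 to 2 without 1 library. In div12_48_d against div12 the cytosolic count was 1 with a filter at 5 TPM and 1 under quantile normalization; the mitochondrial count was 1 under median-ratio scaling, quantile normalization, rescaling to genes that are not members and a fit without the naive group, and 0 to 1 without 1 library. In div12_48_u against div12 the cytosolic count was 4 with only the groups compared and 4 to 10 without 1 library, and the mitochondrial count 5 under median-ratio scaling and 1 to 3 without 1 library.

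The log2 ratio of the class sums moved most with the div12 libraries: without 1 library it was 0.15 to 0.35 in div12 against naive, -0.13 to 0.070 in div12 against div0, -0.11 to 0.095 in div12_48_d against div12, -0.0061 to 0.19 in div12_48_u against div12 and -0.17 to 0.032 in the difference of the phases. The labels do not say whether replicate numbers pair the libraries. Deviations of same-numbered libraries correlated between -0.24 and 0.20 over 4427 genes and between -0.55 and 0.76 over the 30 members, highest between div12_48_u and div12 and lowest between div12 and div0, so the block is an alternative only; it gave the Rps24 transcript NM_011297 an adjusted limma p of 0.0612 in div12 against div0. Against naive, median-ratio scaling moved the calls over all genes to 1374 higher and 1347 lower in div12_48_d and 1032 and 964 in div12_48_u. It gave 1388 and 1457 in div12 and 1130 and 1165 in div0. The calls were 331 and 188 in div12 against div0 and 669 and 492 in div12_48_d against div12_48_u. Against div12 they were 442 and 428 in div12_48_d and 816 and 952 in div12_48_u. Quantile normalization gave 1398 and 1265 in div12_48_d and 1472 and 1294 in div12 against naive. It gave 200 and 182 in div12 against div0, 593 and 613 in div12_48_d against div12_48_u and 382 and 364 in div12_48_d against div12. Rescaling to genes that are not members gave 872 and 1039 in div12_48_u against naive. It gave 588 and 549 in div12_48_d against div12_48_u and 534 and 210 in div12_48_d against div12.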
